A study of Mus musculus with 20 samples.

Results

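The transcripts of 10 circadian clock genes, Clock, Per1, Per2, Per3, Cry1, Cry2, Nr1d1, Nr1d2, Dbp and Tef, were followed across MYC-driven mouse liver tumors and control livers. The genes were chosen by symbol, all 10 were present in both deposited count tables of 50559 genes, and all 10 were among the 14333 genes with enough reads to be tested. RNA sequencing covered 20 libraries from separate female C57BL/6J mice, 5 per group, injected at 6 to 8 weeks of age. Tumors were raised by hydrodynamic gene transfer, a rapid tail vein injection that brings plasmids into hepatocytes, with the Sleeping Beauty transposase SB100X and a plasmid that drives MYC from the EF1a promoter, and a tumor sample can also hold host cells. Aldafermin + MYC tumors also received the FGF19 analog Aldafermin, FGF19 + MYC tumors received human FGF19, a gut hormone that lowers bile acid synthesis, and sgTrp53 + MYC tumors received Cas9 with a guide against Trp53, the mouse p53 gene. The livers carried no MYC plasmid: the labels call them untreated, while a figure legend of the study describes an RFP plasmid. The sgTrp53 + MYC group was taken from the sample titles, since its treatment label reads none. All mice were kept in 12 h of light and 12 h of darkness and were fasted for 5 h before collection. The hour of collection is not given in the sources used here, nor is the age of each mouse at collection (FGF19 + MYC and Aldafermin + MYC mice were followed for at most 4 weeks after injection), and the part of either in the values below was not tested.

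The mammalian clock is a loop of transcription. CLOCK and BMAL1 bind E-box sequences and switch on the Per and Cry genes, whose proteins return to the nucleus and repress CLOCK and BMAL1, so that the loop turns about once a day. In a second loop the REV-ERB receptors, the products of Nr1d1 and Nr1d2, repress Bmal1. DBP and TEF, transcription factors of the PAR bZIP family, are made in a daily rhythm and bind D-box sequences, through which many detoxification and metabolic genes of the liver become rhythmic.

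The windows of 250 bases before the RefSeq start sites of 9 of the 10 genes, 13 windows in all, were searched on both strands for the E-box CACGTG and the D-box TTATGTAA. An E-box was found for Per1, Cry1 and Tef, and 6.02% of the 32851 windows of this length in the table held one. Such shares count single windows, whereas a clock gene with several windows was counted if any of them matched, so genes and windows are unlike units. A D-box was found for Per3 alone among these 9 genes, and it was found there 2 times, 205 and 158 bases before the start. The letters TTATGTAA were present at least once in 0.819% of all windows. Clock, Per1 and Nr1d2 each had a window with AGGTCA, the core of the element read by REV-ERB and ROR receptors, and so did 14% of all windows. The 4 windows below are printed because they carry the E-box and D-box letters by which clock proteins are known to act. They are given 5′ to 3′ on the strand of the gene, with the E-box or D-box in capitals, and their coordinates are those of the exact match to GRCm39.
Per1, chr11:68989525-68989774, plus strand: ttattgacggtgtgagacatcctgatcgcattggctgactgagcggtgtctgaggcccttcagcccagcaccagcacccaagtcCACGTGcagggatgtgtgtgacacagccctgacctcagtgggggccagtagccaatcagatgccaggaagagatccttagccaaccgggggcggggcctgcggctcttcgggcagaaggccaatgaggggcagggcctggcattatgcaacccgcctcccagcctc
Per3, chr4:151129123-151129372, minus strand: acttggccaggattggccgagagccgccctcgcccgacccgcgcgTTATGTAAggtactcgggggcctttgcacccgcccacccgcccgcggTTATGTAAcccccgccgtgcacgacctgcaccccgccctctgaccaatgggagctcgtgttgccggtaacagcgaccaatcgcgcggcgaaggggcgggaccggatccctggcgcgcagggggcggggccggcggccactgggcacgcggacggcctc
Cry1, chr10:85020919-85021168, minus strand: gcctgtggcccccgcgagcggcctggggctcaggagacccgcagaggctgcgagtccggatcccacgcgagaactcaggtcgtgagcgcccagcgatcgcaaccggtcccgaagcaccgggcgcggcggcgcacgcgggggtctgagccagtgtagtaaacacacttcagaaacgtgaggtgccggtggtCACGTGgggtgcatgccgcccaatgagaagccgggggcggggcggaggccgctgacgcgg
Tef, chr15:81686624-81686873, plus strand: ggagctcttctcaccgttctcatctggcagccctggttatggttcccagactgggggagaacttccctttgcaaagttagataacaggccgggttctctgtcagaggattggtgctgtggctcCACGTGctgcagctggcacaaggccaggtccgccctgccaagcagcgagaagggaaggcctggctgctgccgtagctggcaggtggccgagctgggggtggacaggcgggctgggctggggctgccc
The E-box stood 166 bases before the start in Per1, 60 in Cry1 and 127 in Tef, whose second start site had one at 138. These matches describe letters in a window and were not set against the expression values.

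The depth was 18004977 to 44427184 gene reads in the table that held livers, Aldafermin + MYC and FGF19 + MYC tumors, and 54042455 to 66354724 gene reads in the table that held sgTrp53 + MYC tumors alone, so that the table and this group cannot be told apart. Reads that fell on several genes made up 3.03% to 6.30% of the reads in the first table and 11.1% to 14.6% in the second. Trp53 itself was at 18.7 to 79.8 CPM (read counts divided by library size) in sgTrp53 + MYC tumors and at 90.7 to 176 CPM across the other tumors, with livers at 28.8 to 36.3 CPM, inside the sgTrp53 + MYC range. The summed level of 8 hepatocyte markers was 183883 to 227419 CPM in livers and 4202 to 29629 CPM in tumors, with all 8 above 1 CPM on average in each group. Markers of proliferation summed to 39.0 to 56.9 CPM in livers and 775 to 1301 CPM in tumors. The 20 most abundant genes took 25.6% to 28.6% of the reads in livers and 9.24% to 13.2% in tumors, and the scale between libraries therefore mattered. CPM values below were scaled by the TMM method, under which the median gene differed by 0.13, 0.06 and 0.07 on the log2 scale between livers and Aldafermin + MYC, FGF19 + MYC and sgTrp53 + MYC tumors. When libraries were scaled by their total gene count alone, these medians became 0.97, 0.91 and 0.95, and the clock genes moved by about as much.

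The question of the first 3 comparisons was how the clock genes of each tumor group differed from those of livers. With TMM scaling, 7 of the 10 genes, Clock, Per3, Cry2, Nr1d1, Nr1d2, Dbp and Tef, were lower in all 3 tumor groups, and Cry1 was higher in all 3 (edgeR quasi-likelihood test, adjusted p under the threshold of 0.05 in each). Of all genes tested, 26.4% were lower and 30.4% higher in all 3. With total count scaling 3 genes, Nr1d1, Dbp and Tef, stayed lower in all 3 groups and Cry1 stayed higher, beside 12.5% and 52.2% of all genes, whereas with DESeq2 size factors the 7 genes stayed lower and Cry1 was no longer called in all 3. Without a filter on low counts 5 stayed lower, Clock and Nr1d2 being lost in sgTrp53 + MYC tumors. In Aldafermin + MYC tumors 8 clock genes were lower and 1 higher, beside 31.9% and 38.4% of all genes. In FGF19 + MYC tumors 7 were lower and 1 higher, beside 32.9% and 36.9%, and in sgTrp53 + MYC tumors 8 were lower and 1 higher, beside 33% and 36.9%. Groups without overlap were found for 6 genes lower and 1 higher in Aldafermin + MYC tumors, beside 27.5% and 31.3% of all genes, for 5 and 1 in FGF19 + MYC tumors, beside 30.1% and 32.4%, and for 4 and 0 in sgTrp53 + MYC tumors, beside 27.4% and 28.8%. The median log2 fold change over the 10 genes was -1.30, -1.17 and -1.13 in the same order. In bulk tissue, fewer cells of a type and less RNA per cell cannot be told apart. All 3 comparisons share the 5 livers.

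**Figure D1:**
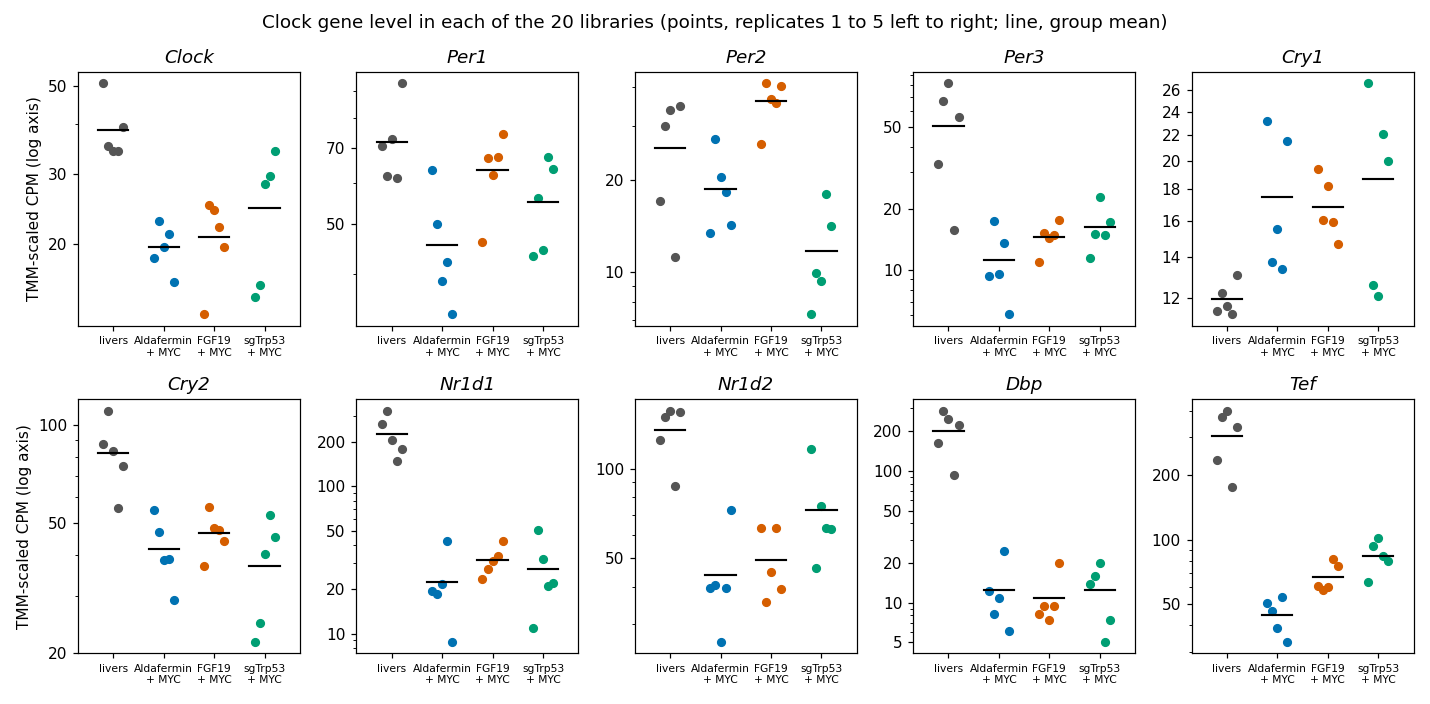
Level of each clock gene in TMM-scaled CPM on a log axis, 1 point per library (replicates 1 to 5 from left to right in each group) and a line at the group mean. For Nr1d1, Dbp and Tef every liver lies above every tumor, with Dbp at 92.7 to 287 CPM in livers and 5.06 to 24.5 CPM in tumors, whereas the points of Per1 and Per2 overlap between livers and each tumor group.

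**Figure D2:**
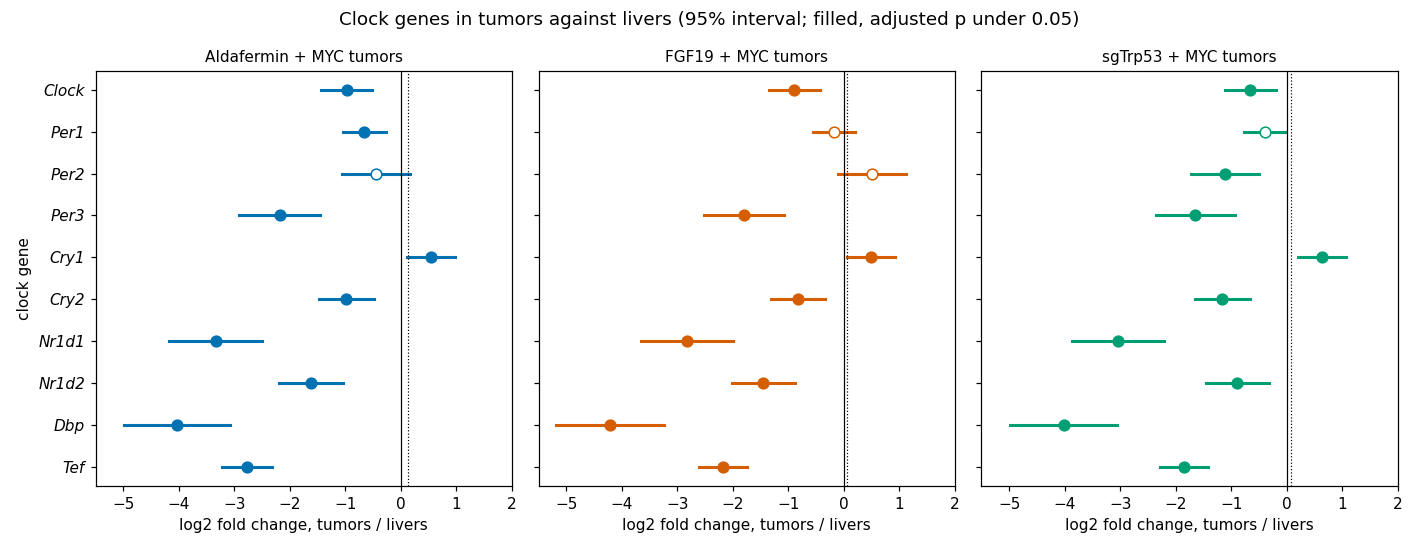
Log2 fold change of each clock gene in tumors over livers, 1 panel per tumor group, with 95% confidence intervals as bars. Filled points passed an adjusted p of 0.05, the solid line marks 0 and the dotted line the median of all genes tested. Dbp lies farthest to the left in all 3 panels, at -4.04, -4.21 and -4.02, and Cry1 is the single filled point to the right in each.

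Dbp showed the largest differences of the 10 genes. It lies at chr7:45354512-45359627 on the plus strand. Its level in livers 1 to 5 was 164, 287, 247, 92.7 and 222 CPM. In Aldafermin + MYC tumors it was 12.2, 8.25, 10.7, 24.5 and 6.05 CPM, in FGF19 + MYC tumors 8.25, 9.42, 7.35, 9.46 and 20.1 CPM, and in sgTrp53 + MYC tumors 13.9, 16.0, 20.1, 5.06 and 7.32 CPM. The lowest liver stood well above the highest tumor, and the 3 tumor groups overlapped. Dbp was 16.4-fold lower in Aldafermin + MYC tumors (log2 fold change -4.04 ± 0.46, SE, adjusted p = 2.39e-07), 18.5-fold lower in FGF19 + MYC tumors (-4.21 ± 0.46) and 16.2-fold lower in sgTrp53 + MYC tumors (-4.02 ± 0.46). Only 3.75%, 2.91% and 3.44% of all genes tested had a log2 fold change at or below that of Dbp in these comparisons.

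Tef, the close relative of Dbp at chr15:81686622-81711064 on the plus strand, was lower by a smaller factor and less scattered. Livers had 235, 375, 399.9, 176 and 337 CPM. Aldafermin + MYC tumors had 50.6, 46.8, 38.8, 53.9 and 33.6 CPM, FGF19 + MYC tumors 60.9, 58.7, 60.4, 81.1 and 75.9 CPM, and sgTrp53 + MYC tumors 63.8, 93.4, 102, 83.7 and 79.7 CPM. Every tumor was below every liver, and every Aldafermin + MYC tumor was also below every FGF19 + MYC tumor. The fold difference from livers was 6.80 in Aldafermin + MYC tumors (log2 fold change -2.77 ± 0.22, SE, adjusted p = 1.20e-09), 4.52 in FGF19 + MYC tumors (-2.18 ± 0.21) and 3.60 in sgTrp53 + MYC tumors (-1.85 ± 0.21). Hlf, the remaining member of the family, was also lower than in livers, with log2 fold changes of -1.09, -0.78 and -0.95 (adjusted p = 0.000208, 0.00396 and 0.000790), although with total count scaling none of these differences passed the test and the one in FGF19 + MYC tumors turned to 0.08. Nfil3, which represses genes at D-boxes, had log2 fold changes of -0.48, -0.09 and -0.14, none of which passed the test. With DESeq2 size factors the first was -0.56 and passed (adjusted p = 0.0432). With total count scaling they were 0.37, 0.78 and 0.76, and the last 2 passed.

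Nr1d1, which encodes REV-ERBα, had the second largest differences. The gene lies at chr11:98658752-98666188 on the minus strand. It was at 265, 326, 207, 149 and 178 CPM in livers. The values were 19.4, 18.5, 21.8, 42.8 and 8.85 CPM in Aldafermin + MYC tumors, 23.3, 27.5, 31.3, 33.8 and 42.6 CPM in FGF19 + MYC tumors, and 10.9, 50.4, 32.3, 21.0 and 21.97 CPM in sgTrp53 + MYC tumors. No tumor reached the lowest liver, and the tumor groups overlapped throughout. Nr1d1 was 10.1-fold lower in Aldafermin + MYC tumors (log2 fold change -3.34 ± 0.40, SE, adjusted p = 5.21e-07), 7.09-fold lower in FGF19 + MYC tumors and 8.23-fold lower in sgTrp53 + MYC tumors. In the GENCODE annotation, 52.8% of its exon bases are shared with genes on the opposite strand, Thra among them, against 15.5% for Dbp and 0% for Per2, Cry1 and Nr1d2. The strand setting of the read counting is not given in the sources used here, so reads of such pairs may not have been told apart.

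Nr1d2, the gene of REV-ERBβ at chr14:4230545-4266624 on the plus strand, was lower as well, by less than Nr1d1. Livers had 125, 149, 157, 87.2 and 155 CPM. Aldafermin + MYC tumors had 39.7, 40.5, 26.3, 39.9 and 72.5 CPM, FGF19 + MYC tumors 63.4, 35.6, 44.9, 63.1 and 39.4 CPM, and sgTrp53 + MYC tumors 117, 46.5, 74.6, 63.3 and 62.5 CPM. The first 2 tumor groups did not overlap with livers, while sgTrp53 + MYC tumor 1 lay within their range. The log2 fold change was -1.62 ± 0.27 (SE, adjusted p = 3.14e-05), -1.45 ± 0.27 (adjusted p = 0.000102) and -0.89 ± 0.27 (adjusted p = 0.00631). With total count scaling the difference in sgTrp53 + MYC tumors was -0.03 and no longer passed the test, and without a filter on low counts its adjusted p was 0.0820.

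The 3 Period genes, whose proteins act together with the Cryptochromes in the repression of the first loop, did not move as a group. Per3, at chr4:151081373-151129140 on the minus strand, was at 33.0, 67.1, 81.8, 15.7 and 55.9 CPM in livers. It was at 9.38, 17.3, 9.56, 13.6 and 6.08 CPM in Aldafermin + MYC tumors, at 10.98, 15.2, 14.4, 14.9 and 17.5 CPM in FGF19 + MYC tumors, and at 11.5, 15.0, 22.7, 14.8 and 17.1 CPM in sgTrp53 + MYC tumors. Apart from liver 4, every liver was above every tumor. Per3 was lower in all 3, with log2 fold changes of -2.18, -1.80 and -1.65 (adjusted p = 1.70e-05, 0.000128 and 0.000278), and with total count scaling the last of these became -0.75 and did not pass (adjusted p = 0.0690).

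Per2, at chr1:91343700-91387069 on the minus strand, differed between tumor groups rather than in one direction from livers. It was at 17.0, 29.9, 33.7, 11.2 and 34.8 CPM in livers and at 13.4, 27.1, 20.5, 18.2 and 14.2 CPM in Aldafermin + MYC tumors. FGF19 + MYC tumors had 26.2, 41.2, 36.5, 35.4 and 40.5 CPM, and sgTrp53 + MYC tumors had 7.29, 9.96, 9.36, 18.0 and 14.1 CPM. The FGF19 + MYC values lay above all sgTrp53 + MYC values, and livers overlapped with each of the 3 tumor groups. Against livers, Per2 was 2.16-fold lower in sgTrp53 + MYC tumors (log2 fold change -1.11 ± 0.30, SE, adjusted p = 0.00251), but with total count scaling this was -0.23 and did not pass. The values of -0.44 in Aldafermin + MYC tumors (95% interval -1.06 to 0.17) and 0.50 in FGF19 + MYC tumors (-0.11 to 1.12) did not pass the test. Without liver 4, the lowest, the first of these was -0.64 with an adjusted p of 0.0415. With total count scaling it was 0.41, and the second was 1.35 and passed.

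Per1, at chr11:68986035-69002300 on the plus strand, differed least from livers of the 3 in FGF19 + MYC and sgTrp53 + MYC tumors with TMM scaling. It was at 70.6, 61.9, 72.8, 61.2 and 93.2 CPM in livers and at 63.4, 50.1, 38.8, 42.3 and 33.5 CPM in Aldafermin + MYC tumors. FGF19 + MYC tumors had 46.1, 67.0, 62.2, 67.4 and 74.6 CPM, and sgTrp53 + MYC tumors had 43.4, 56.1, 44.6, 67.3 and 63.9 CPM. All 3 tumor groups overlapped with livers. With TMM scaling Per1 was 1.58-fold lower in Aldafermin + MYC tumors (log2 fold change -0.66 ± 0.18, SE, adjusted p = 0.00349), and the differences of -0.18 in FGF19 + MYC and -0.39 in sgTrp53 + MYC tumors did not pass (adjusted p = 0.384 and 0.0654), whereas with total count scaling the 3 values were 0.19, 0.67 and 0.50 and the last 2 passed in the opposite direction. In sgTrp53 + MYC tumors the TMM value passed when liver 2 (-0.45), liver 4 (-0.45) or tumor 4 (-0.47) was left out, with adjusted p of 0.0480, 0.0461 and 0.0383. With all libraries, Per1 there also passed with DESeq2 size factors (-0.42, adjusted p = 0.0355) and in the DESeq2 Wald test (-0.42, adjusted p = 0.0298).

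The Cryptochrome genes, which encode the partners of the Period proteins, differed in opposite directions with TMM scaling. Cry1, at chr10:84967560-85021252 on the minus strand, was at 11.5, 12.3, 11.7, 11.3 and 13.1 CPM in livers. Aldafermin + MYC tumors had 23.2, 13.7, 15.5, 13.4 and 21.5 CPM, FGF19 + MYC tumors 19.4, 16.0, 18.2, 15.9 and 14.7 CPM, and sgTrp53 + MYC tumors 26.6, 12.6, 12.1, 22.1 and 19.997 CPM. The livers were close together and below the first 2 tumor groups, while sgTrp53 + MYC tumors 2 and 3 lay among them. Cry1 was 1.46-fold higher in Aldafermin + MYC tumors (log2 fold change 0.55 ± 0.21, SE, adjusted p = 0.0250), 1.41-fold higher in FGF19 + MYC tumors (0.49 ± 0.21, adjusted p = 0.0416) and 1.56-fold higher in sgTrp53 + MYC tumors (0.64 ± 0.21, adjusted p = 0.00992).

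The first 2 of these calls were near the threshold. With DESeq2 size factors the adjusted p for Cry1 was 0.0640 in Aldafermin + MYC and 0.0767 in FGF19 + MYC tumors. In Aldafermin + MYC tumors the call was lost without tumor 1 (log2 fold change 0.43), liver 1 (0.52) or liver 4 (0.52), with adjusted p of 0.0823, 0.0522 and 0.0514. In FGF19 + MYC tumors it was lost in 9 of 10 such fits, all but the one without tumor 5, with log2 fold changes of 0.44 to 0.51 and adjusted p of 0.0516 to 0.0870.

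Cry2, at chr2:92233894-92264474 on the minus strand, was at 87.7, 111, 83.1, 55.8 and 74.8 CPM in livers. It was at 55.05, 46.9, 38.5, 38.9 and 29.0 CPM in Aldafermin + MYC tumors, at 37.0, 55.9, 48.5, 47.7 and 44.0 CPM in FGF19 + MYC tumors, and at 21.7, 24.6, 40.3, 52.9 and 45.3 CPM in sgTrp53 + MYC tumors. Liver 4 was level with the highest tumor of the FGF19 + MYC group, and all other livers were above all tumors. Cry2 was lower in all 3, with log2 fold changes of -0.99, -0.82 and -1.16 (adjusted p = 0.00101, 0.00424 and 0.000229), but with total count scaling the values were -0.13, 0.03 and -0.26 and none passed.

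Clock itself, at chr5:76342860-76452846 on the minus strand, was at 50.6, 35.2, 34.3, 34.2 and 39.3 CPM in livers. Aldafermin + MYC tumors had 18.4, 22.9, 19.7, 21.2 and 16.0 CPM, FGF19 + MYC tumors 13.3, 25.01, 24.4, 22.03 and 19.6 CPM, and sgTrp53 + MYC tumors 14.8, 15.8, 28.4, 29.7 and 34.2 CPM. Only sgTrp53 + MYC tumors reached the range of livers, with tumor 5 at the level of liver 4. Clock was 1.97-fold, 1.85-fold and 1.58-fold lower (log2 fold change -0.98, -0.89 and -0.66, adjusted p = 0.000669, 0.00156 and 0.0129), but with total count scaling the values were -0.13, -0.03 and 0.25 and none passed. In sgTrp53 + MYC tumors the call was also lost without a filter on low counts (-0.37, adjusted p = 0.188) and with only the 2 compared groups in the model (-0.53, adjusted p = 0.0655).

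Bmal1, the partner of Clock, was listed under its older symbol Arntl. It was low in all groups, at 1.46 to 5.94 CPM in livers, 2.05 to 4.17 CPM in Aldafermin + MYC tumors, 1.23 to 4.44 CPM in FGF19 + MYC tumors and 1.86 to 5.44 CPM in sgTrp53 + MYC tumors. These ranges overlapped. The log2 fold changes of -0.28, -0.37 and 0.08 did not pass the test, with 95% intervals of -1.08 to 0.52, -1.18 to 0.43 and -0.71 to 0.88, and with total count scaling the last was 0.99 and passed. Bmal2 (Arntl2), a relative that can replace BMAL1 as a partner, was at 0.286 to 1.01 CPM in livers and at 2.44 to 3.66, 2.60 to 5.24 and 3.65 to 7.80 CPM in the 3 tumor groups, a log2 fold change of 2.29, 2.44 and 3.47. Bmal2 passed the filter on low counts through tumors, the groups in which it was high, so its place among the genes called higher in tumors carries no weight as a test. Npas2, which can stand in for Clock, was at 0.617 to 1.16 CPM in livers and at no more than 0.527 CPM in any tumor, too low to be tested.

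Ratios of the reads of 2 genes within the same library need no scaling between libraries, and these were formed after the values above were seen. The pairs were thus picked with the fold changes known, so a lack of overlap below is a description and not a test. The share of all pairs of genes whose ratio separates livers from tumors was not computed. Over the same pair of genes, a change of ratio shows unequal change and not which gene changed. A difference between the 2 count tables in how the reads of 1 gene were counted would stay in a ratio, and its part was not tested. The reads of Dbp per read of Clock were 2.71 to 8.13 in livers, 0.360 to 1.16 in Aldafermin + MYC tumors, 0.301 to 1.02 in FGF19 + MYC tumors and 0.170 to 1.01 in sgTrp53 + MYC tumors. The ratio of Dbp to its relative Tef was 0.528 to 0.765 in livers and 0.0604 to 0.455 over all tumors. Nr1d1 per Nr1d2 was 1.15 to 2.195 in livers and 0.0938 to 1.08 over all tumors, and Cry1 per Cry2 was 0.111 to 0.203 in livers and 0.287 to 1.23 over all tumors. For each of these 4 pairs, livers and tumors did not overlap. Nr1d1 per Clock did not overlap either, at 4.36 to 9.26 in livers and 0.552 to 3.18 over all tumors. Tef per Clock did, at 4.64 to 11.7 in livers, 1.97 to 2.75 in Aldafermin + MYC, 2.35 to 4.57 in FGF19 + MYC and 2.33 to 5.91 in sgTrp53 + MYC tumors, of which the last reached into the liver range. Per3 per Per1 overlapped between livers (0.256 to 1.12) and tumors (0.148 to 0.508). Per2 per Per1 was highest in FGF19 + MYC tumors, at 0.526 to 0.614, and lowest in sgTrp53 + MYC tumors, at 0.168 to 0.267, with livers at 0.183 to 0.483 and Aldafermin + MYC tumors at 0.212 to 0.541.

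**Figure D3:**
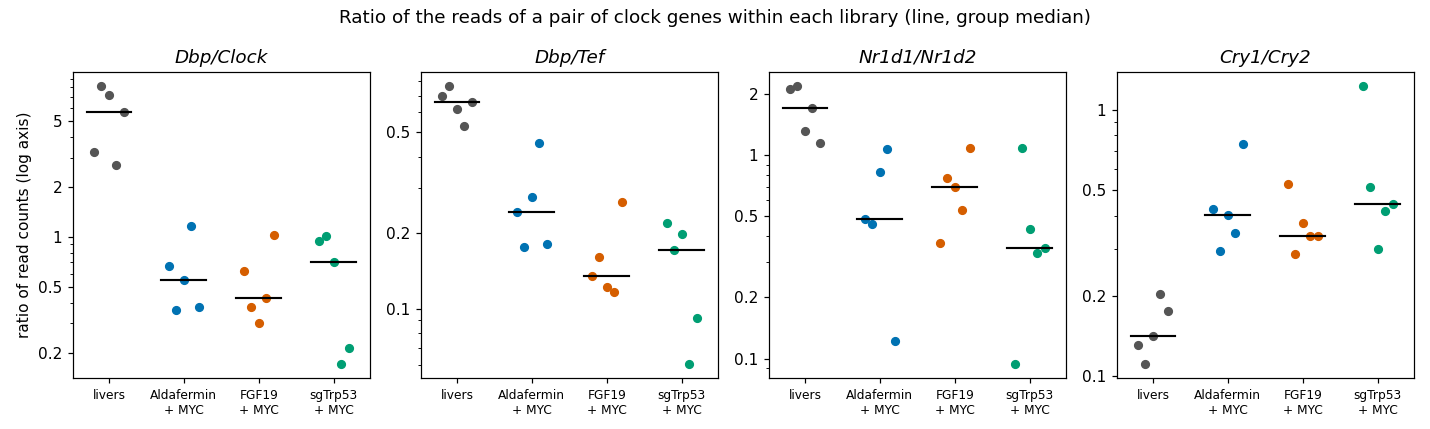
Ratio of the read counts of a pair of clock genes in each library on a log axis, 1 point per library and a line at the group median. The livers lie above all tumors for Dbp/Clock, Dbp/Tef and Nr1d1/Nr1d2 and below all tumors for Cry1/Cry2, where livers reach 0.203 and the lowest tumor is at 0.287.

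The summed hepatocyte markers did not order the clock genes in the same way in each group. Aldafermin + MYC tumor 4 had the highest marker sum of its group, 23354 CPM against 9622 to 16515 CPM in the others, and the highest Nr1d1, Dbp and Tef, but tumor 5, second with 16515 CPM, had the lowest of all 3. FGF19 + MYC tumor 5, with 29629 CPM against 10275 to 14724 CPM, had the highest Per1, Per3, Nr1d1 and Dbp of its group. In sgTrp53 + MYC tumors, tumor 1 was highest in the markers, with 11563 CPM, and in Cry1 and Nr1d2, and lowest in Clock, Per1, Per2, Per3, Cry2, Nr1d1 and Tef. Among livers, replicate 4 had the highest marker sum and the lowest level of all 10 clock genes. When Aldafermin + MYC tumor 4 and FGF19 + MYC tumor 5 were both left out, the number of clock genes called against livers was 9, 8 and 9, the same as with them. The tumors that remained had marker sums of at most 16515 CPM, against at least 183883 CPM in livers, so this fit cannot decide on hepatocyte content. The part of hepatocyte content in the differences from livers was not tested. Cholangiocyte markers were high in 1 library, sgTrp53 + MYC tumor 2, at 780 CPM against at most 124 CPM in any other, and this library had the highest Nr1d1 of its group.

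The question of the next comparison was whether the analog Aldafermin and FGF19 itself gave tumors with different clock gene levels. No clock gene passed the test between Aldafermin + MYC and FGF19 + MYC tumors, and neither did any other gene (edgeR quasi-likelihood test, 0% of 14333 genes called). DESeq2 called 0 clock genes and 96 genes in all, and edgeR's likelihood ratio test 0 and 59. At an unadjusted p under 0.05, 3 clock genes were lower in Aldafermin + MYC tumors, beside 7.31% of all genes in either direction. These were Per2, with a log2 difference of -0.95 (95% interval -1.56 to -0.33, adjusted p = 0.365), Tef, with -0.59 (-1.01 to -0.17, adjusted p = 0.426), and Per1, with -0.48 (-0.86 to -0.09, adjusted p = 0.511). Tef was the 1 clock gene whose groups did not overlap, as was so for 0.391% of all genes in this direction and for 1.07% in the other, where no clock gene was found. For Per2 the groups overlapped by a single library, Aldafermin + MYC tumor 2 at 27.1 CPM, above FGF19 + MYC tumor 1 at 26.2 CPM. The intervals of the other 7 genes included 0 and were widest for Dbp, at -0.69 to 1.04, and Nr1d1, at -1.29 to 0.26, and narrowest for Cry1, at -0.38 to 0.49.

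The last comparison set FGF19 + MYC and Aldafermin + MYC tumors, pooled, against sgTrp53 + MYC tumors, which carry MYC and a Trp53 guide without FGF19 or Aldafermin. The sgTrp53 + MYC tumors were also alone in their count table, so hormone, guide and table cannot be told apart in this comparison. Per2 was higher in the pooled tumors and Nr1d2 and Tef were lower, beside 11.6% of all genes that were higher and 12.1% that were lower. Per2 was 2.21-fold higher (log2 difference 1.14 ± 0.27, SE, adjusted p = 0.00473), with FGF19 + MYC tumors at a mean of 36.0 ± 5.99 CPM, Aldafermin + MYC tumors at 18.7 ± 5.53 CPM and sgTrp53 + MYC tumors at 11.7 ± 4.27 CPM (SD, n = 5 each). Its adjusted p ranged from 0.000170 to 0.0169 over all 24 alternatives. Tef was 1.54-fold lower in the pooled tumors (-0.62 ± 0.17, adjusted p = 0.0133), with means of 67.4 ± 10.3 CPM in FGF19 + MYC, 44.8 ± 8.41 CPM in Aldafermin + MYC and 84.5 ± 14.4 CPM in sgTrp53 + MYC tumors. The adjusted p for Tef ranged from 0.00205 to 0.0437 over the 24 alternatives, at its highest close to the threshold.

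Nr1d2 was 1.56-fold lower in the pooled tumors (-0.65 ± 0.23, adjusted p = 0.0441). This call was lost when any of sgTrp53 + MYC tumors 1, 3, 4 and 5, Aldafermin + MYC tumors 1 to 4 or FGF19 + MYC tumors 2, 3 and 5 was left out, 11 of 15 fits, with adjusted p up to 0.174 and a log2 difference of -0.41 without sgTrp53 + MYC tumor 1. Over all alternatives it was lost in 15 of 24. Among these were a filter of 5 CPM (adjusted p = 0.0513) and a fit of only the compared groups (0.0606). A fit without both Aldafermin + MYC tumor 4 and FGF19 + MYC tumor 5 also lost it (0.0947). The other 7 clock genes did not pass, with log2 differences between -0.35 (Per3) and 0.25 (Cry2). No clock gene separated the pooled tumors from sgTrp53 + MYC tumors without overlap, beside 3.28% of all genes higher and 2.42% lower without overlap. The summed macrophage markers were at 83.9 to 167 CPM in sgTrp53 + MYC tumors and 151 to 475 CPM in the pooled tumors, the endothelial markers at 51.8 to 132 and 55.5 to 177 CPM, and the hepatocyte markers at 4202 to 11563 and 9622 to 29629 CPM, and the part of these in the differences was not tested. Among other clock factors, Bhlhe41 was lower, with a log2 difference of -2.97 (adjusted p = 0.000555), with 0.254 to 2.53 CPM in the pooled tumors and 4.59 to 12.1 CPM in sgTrp53 + MYC tumors, and Bmal2 was lower as well (-1.10, adjusted p = 0.00333).

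**Figure D4:**
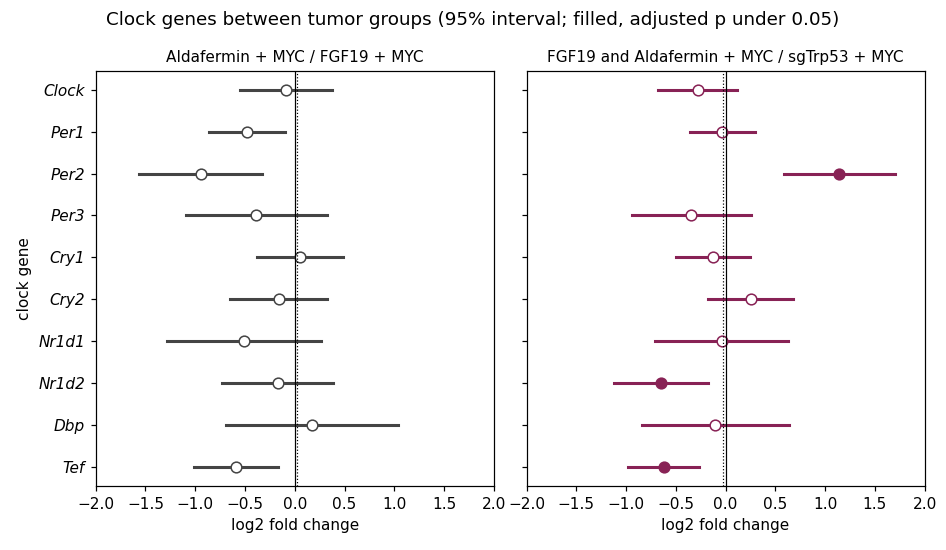
Log2 fold change of each clock gene between tumor groups with 95% confidence intervals, Aldafermin + MYC over FGF19 + MYC tumors on the left and pooled FGF19 and Aldafermin + MYC over sgTrp53 + MYC tumors on the right. Open points did not pass an adjusted p of 0.05, which holds for all 10 on the left, and the dotted line marks the median of all genes tested. Filled points on the right are Per2 at 1.14, Nr1d2 at -0.65 and Tef at -0.62.

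The livers differed among themselves more in some clock genes than in others. Per3 spanned a 5.22-fold range over the 5 livers, Per2 a 3.12-fold, Dbp a 3.09-fold and Tef a 2.28-fold range, against 1.16-fold for Cry1 and 1.48-fold for Clock. For Per2, Per3, Cry1, Nr1d2, Dbp and Tef, livers 1 and 4 were the lowest and livers 2, 3 and 5 were higher. Ciart, a repressor of CLOCK and BMAL1, followed the same order with 3.22 and 3.07 CPM in livers 1 and 4 and 13.1 to 32.2 CPM in the others. Clock, Per1, Cry2 and Nr1d1 did not follow it, since liver 1 was above at least 1 of livers 2, 3 and 5. Bmal1 was at 5.94 and 3.75 CPM in livers 1 and 4 and at 4.25, 1.46 and 2.31 CPM in livers 2, 3 and 5. In tumors, the Per3 range was 2.84-fold, 1.60-fold and 1.97-fold in Aldafermin + MYC, FGF19 + MYC and sgTrp53 + MYC tumors, and the widest ranges within a tumor group were those of Nr1d1 in Aldafermin + MYC tumors, 4.84-fold, and in sgTrp53 + MYC tumors, 4.60-fold.

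**Figure D5:**
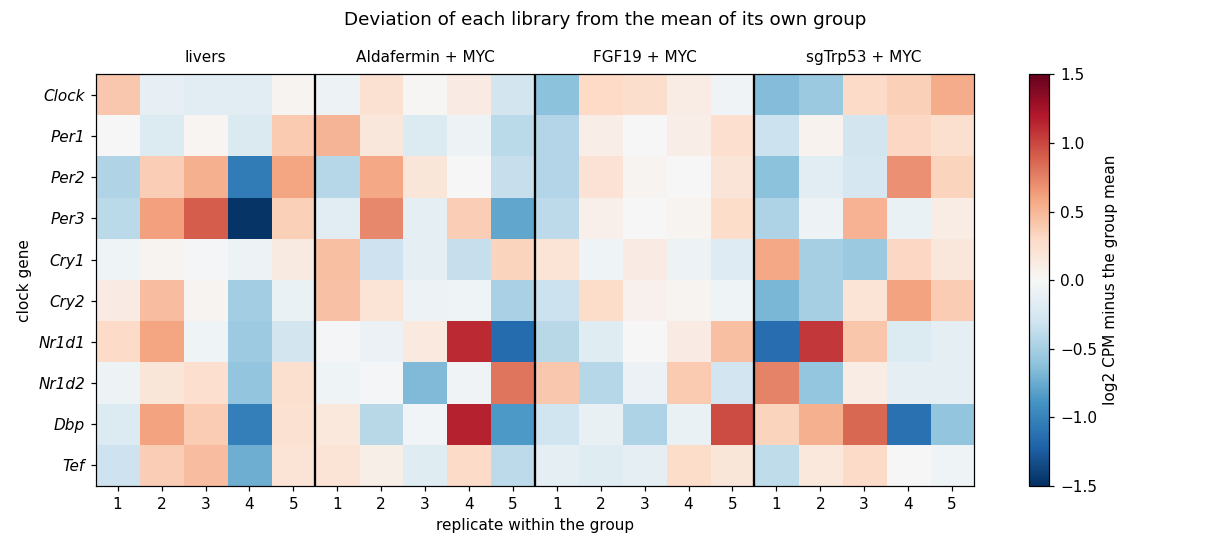
Deviation of each library from the mean of its own group in log2 CPM, clock genes in rows and the 5 libraries of each group in columns (red, above the group mean, blue, below). In the livers, replicate 4 is blue for all 10 genes, deepest for Per3 at -1.47. In the tumors, Nr1d1 and Dbp carry the strongest colors, such as 1.15 for Dbp in Aldafermin + MYC tumor 4.

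After the group means were removed, 6 of the 45 pairs of clock genes varied together over the 20 libraries (permutation within groups, adjusted p under 0.05). Of the 45 pairs 15.6% had an r at least as far from 0 as the weakest of these, 0.62, and so did 13.3% of all pairs of tested genes, so the share among clock genes was near that of all genes. The closest pair was Per3 and Tef, with Pearson r = 0.87 (permutation p = 0.000170, adjusted p = 0.00765) and Spearman rho = 0.81 (permutation p = 0.000900, adjusted p = 0.0405), and r was 0.77 without the 2 libraries farthest from the median. Per2 and Per3 (r = 0.78, rho = 0.72), Clock and Cry2 (r = 0.74, rho = 0.70), Dbp and Tef (r = 0.65, rho = 0.66) and Nr1d1 and Tef (r = 0.62, rho = 0.59) also rose and fell together, each with an adjusted permutation p of 0.0227 for r. For rho the adjusted permutation p was 0.0445 for the first 3 of these and 0.0818 for Nr1d1 and Tef. Cry1 and Nr1d1 moved in opposite ways (r = -0.74, rho = -0.67, adjusted permutation p = 0.0227 and 0.0445). Without the 2 farthest libraries r of these 5 pairs was 0.77, 0.66, 0.70, 0.54 and -0.68. The number of pairs fell to 1 without Aldafermin + MYC tumor 5 or sgTrp53 + MYC tumor 5, to 2 without liver 4 or sgTrp53 + MYC tumors 2 or 3, and to 3 without Aldafermin + MYC tumor 4, and was 19 with total count scaling. The genes most like Dbp by the same measure over the 20 libraries were Zfp456 (r = 0.85), Tmem184a (0.83) and Apol9b (0.83), while Tef ranked 261, Nr1d1 331 and Per3 545 among 14332 genes. Those most like Clock were Sh3pxd2a (0.92), Ddi2 (0.91) and Slain2 (0.90). For Per1 they were Aaas and Vac14 (0.81 and 0.80) and for Cry1 Psmd7, Adsl and Pole3 (0.87 each). All of these share the libraries and their depth. The sgTrp53 + MYC tumors 1 and 2 were the lowest of their group in both Clock and Cry2. Their sample codes stand apart from those of the other tumors of the group, and the part of this in the pair was not tested.

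Of the 8 other transcription factors of the loops, 7 were tested, and 4 of them, Hlf, Rora, Bhlhe40 and Ciart, were lower than in livers in each tumor group with TMM scaling, whereas with total count scaling the test was passed by Rora and Bhlhe40 alone among these 4. Of all genes, 26.4% were lower in all 3 groups with TMM scaling and 12.5% with total count scaling. Rora, an activator of Bmal1, was at 65.4 to 97.8 CPM in livers and 5.62 to 20.4 CPM in tumors, with log2 fold changes of -3.21, -2.48 and -2.63. Those of Bhlhe40, which represses genes at E-boxes, were -2.39, -2.27 and -2.28, and those of Ciart -1.78, -1.43 and -1.54. Bhlhe41, the relative of Bhlhe40, was higher in sgTrp53 + MYC tumors (2.76, adjusted p = 0.00103) and was not called in the other tumors (-0.02 and -0.40). Rorb was at 0 in all but 1 library.

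Among 8 genes of clock protein turnover, 3 were higher and 2 lower in Aldafermin + MYC tumors, 3 and 1 in FGF19 + MYC tumors and 2 and 1 in sgTrp53 + MYC tumors, whereas with total count scaling 6, 7 and 7 were higher and 1 was lower in each. Of all genes, 36.9% to 38.4% were higher and 31.9% to 33% lower with TMM scaling, and 58.4% to 60.1% were higher and 16.8% to 17.1% lower with total count scaling. The 2 with the smallest adjusted p were Timeless, also known for its role at replication forks, higher by 3.40, 3.23 and 3.502 on the log2 scale, and Fbxl21, a ubiquitin ligase subunit that binds Cryptochromes, which was low in livers (2.75 to 3.07 CPM) and lower still in tumors (0.0448 to 0.588 CPM). Fbxl21 passed the filter on low counts through livers alone, so its place among the genes called lower in tumors followed from that filter and carries no weight as a test. Of 12 liver genes with known daily rhythms, 11 were tested. In Aldafermin + MYC tumors 8 were lower and 1 higher, in FGF19 + MYC tumors 8 and 2, and in sgTrp53 + MYC tumors 6 and 2, and with total count scaling 5 were lower and 3 higher in each, to be set beside the same shares of all genes. Alas1, the first enzyme of heme synthesis, had log2 fold changes of -3.58, -3.43 and -3.28, and Por, the electron donor of cytochrome P450 enzymes, of -2.40, -2.47 and -2.57. The median log2 fold change of these 11 genes was -1.18, -1.17 and -1.23.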

How the data were processed

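Per the labels and the study's methods, the authors prepared stranded mRNA libraries, sequenced them in pairs of 150 bp (bcl2fastq 2.20.0.422, per the submitters' processing notes), used HISAT2 and mm39 for alignment, and deposited the raw read counts per gene that htseq-count gave on the RefSeq annotation. The 5 summary lines of each library (33.7% to 56.2% of the reads listed) were removed. No library copied another (chi-square over its degrees of freedom at least 15.0 over 40 pairs within groups), and 0 columns were left out. In R 4.3.3, edgeR 4.0.16 with TMM scaling fitted 1 quasi-likelihood model of the 4 groups to the genes that reached 1 CPM in 5 or more libraries. P-values were adjusted by Benjamini-Hochberg over all genes at 0.05, and SE is the log2 fold change over the root of F. Pairs of genes were tested by two-sided permutation within groups (100000 resamples) of log2 CPM with a prior count of 2. The edgeR fit and the permutation of pairs were tested on simulated data. Libraries came from separate mice, so p-values measure the spread between mice. The submitters' sample codes fall in separate number ranges within groups, such as sgTrp53 + MYC tumors 1 and 2 against 3 to 5. What the ranges stand for is not given. The model and the permutations did not include them, and their part in the spread was not tested.

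The clock genes, the other lists and the motifs were chosen with earlier results of these data known. All clock genes, activators and loop factors were named, with the 2 genes of each other list that had the smallest adjusted p and the 3 genes most like Dbp, Per1, Clock and Cry1, except for 2 genes that are not reported here. Alternatives were DESeq2 1.42.0, edgeR's likelihood ratio test, other scalings and filters, only the compared groups, a replicate block, each library left out and, chosen after seeing the data, the block for pairs and the removal of both hepatocyte-rich tumors. Gene coordinates are those of GENCODE M39 on GRCm39, and promoter windows are from the RefSeq table of GRCm38.p6, matched by sequence to GRCm39.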

Additional observations from a re-analysis of the deposited data

Results flagged for a closer look

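In 1 of the 40 sets of 5 libraries (10 genes in 4 groups), 1 library stood apart from the other 4 by Dixon's criterion, which chance gives in about 5% of sets. Dbp in FGF19 + MYC tumor 5 was at 20.1 CPM, while the nearest other tumor of the group was at 9.46 CPM and the lowest at 7.35 CPM. The same tumor had the highest hepatocyte marker sum of its group, 29629 CPM, and the part of this in its Dbp level was not tested. The log2 fold change of Dbp against livers was -4.55 without this library and -4.21 with it.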

How the results depend on the processing

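The lower levels of Dbp, Nr1d1 and Tef against livers kept their direction and their call in all 3 tumor groups under every alternative run. With total count scaling 6, 8 and 5 clock genes, not 9, 8 and 9, were called in Aldafermin + MYC, FGF19 + MYC and sgTrp53 + MYC tumors. Of these 1, 3 and 2 were higher than in livers, whereas with TMM scaling 1 was higher in each group. Signs turned for Per1 (0.19, 0.67 and 0.50 in the same order), Per2 (0.41 in Aldafermin + MYC), Cry2 (0.0315 in FGF19 + MYC) and Clock (0.25 in sgTrp53 + MYC), since this scaling moved the median of all genes up. It moved the share of higher among called genes from 54.6%, 52.9% and 52.8% to 78.2%, 77.3% and 77.9%. The number of pairs varying together was 19 with it, and 1 to 9 with 1 library left out. Between Aldafermin + MYC and FGF19 + MYC tumors, where 0 genes were called, 2 were called with DESeq2 size factors, 96 with DESeq2, 59 with the likelihood ratio test, 10 without both hepatocyte-rich tumors and 0 to 29 with 1 library left out, clock genes staying at 0 in each of these. With 1 library left out, uncalled differences there also changed sign, Cry1 ranging from -0.0687 to 0.14 and Dbp from -0.23 to 0.52, and in the pooled comparison Per1 from -0.11 to 0.0488, Cry1 from -0.25 to 0.0381, Nr1d1 from -0.24 to 0.30 and Dbp from -0.31 to 0.13. The causes of these changes were not tested.

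Replicate numbers are shared between groups, but deviations of same-numbered libraries correlated at a median of -0.02, above 0.1 in 6 of 30 pairs, and the numbers were not treated as pairing. With the replicate block the clock genes called were 9, 8, 9, 0 and 2 in the 5 comparisons and 9 pairs varied together, the Nr1d2 call in the pooled comparison was lost (adjusted p = 0.0627), and Nr1d1 there was 0.0343 against -0.04 without the block. The depth of 18004977 to 66354724 reads limits the lowest genes, such as Npas2.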
